A study of Rattus norvegicus with 9 samples.

Results

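The transcripts of 4 cyclic nucleotide phosphodiesterase genes, Pde4b, Pde4d, Pde7b and Pde10a, were followed, 4 of 14217 named genes, in rat adrenal zona glomerulosa cells under 2 stimuli of aldosterone secretion. The members were all probe sets (groups of short oligonucleotides that together report 1 transcript) carrying 1 of these gene symbols alone, which gave 8 of the 31042 probe sets that were not controls. Pde4b had 2 of them, Pde4d 3, Pde7b 1 and Pde10a 2. Cells of the adrenal outer cortex were freshly isolated from rats in 3 independent preparations, by enzymes and mechanical dispersion. From each preparation 1 tube was left in basal medium, 1 received 100 nM angiotensin II (Ang II) and 1 was brought to 16 mM potassium, all for 2 h at 37 °C. Every tube was kept in the same DMEM:F12 medium with bovine serum albumin, and RNA of each tube went to its own Affymetrix Rat Genome 230 2.0 array, which made 3 arrays per group and 9 in all. No strain, sex or age of the rats is stated in the labels used here.

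Phosphodiesterases end cyclic nucleotide signals by hydrolysing cAMP, cGMP or both. In glomerulosa cells cAMP acts mainly downstream of ACTH and supports steroid synthesis through protein kinase A, while Ang II and potassium act chiefly through calcium. Pde4b and Pde4d encode cAMP-specific enzymes of the rolipram-sensitive PDE4 family, whose short isoforms can be transcribed from internal, cAMP-responsive promoters in some cells. Pde7b encodes a cAMP-specific enzyme insensitive to rolipram, and Pde10a an enzyme that hydrolyses both nucleotides and is best known from the striatum.

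The start regions of the genes were searched for the letters that CREB, the transcription factor activated by protein kinase A and by calcium-dependent kinases, is known to bind. They were also searched for an element named after the NR4A nuclear receptors, which is not a CREB element. RefSeq windows (assembly GRCr8) running from 250 bases before to 50 bases after a start were at hand for 3 of the 4 members, 2 windows for Pde4b, 5 for Pde4d and 2 for Pde10a, and not for Pde7b. The full cAMP response element TGACGTCA was in 0 of these 9 windows and in 1.83% of all 33469 rat windows. The shorter form TGACG, which also lies within the full element, was on either strand in 3 of the 9 and in 21.2% of all. The NR4A element AAAGGTCA was in 0 of the 9 and in 1.43% of all. Shown for reference to the values that follow are the Pde10a window and 1 of the 2 Pde4d windows with the shorter form, 1 Pde4b window without any match, and 1 window of Crem, a CREB family gene that rose under both stimuli. Crem has 3 windows, and the 1 shown holds the most full elements, while the others hold 0 and 1. Whether these elements bear on a gene's response was not tested. Capitals mark the matches. In the Pde10a window (minus strand) the matches began 179 and 104 bases before the start, and in the Pde4d window (plus strand) 231 and 194 bases before it. In the Crem window (plus strand) the full element began 35 bases before and 39 bases after the start.
Pde10a, chr1:54765619-54765918: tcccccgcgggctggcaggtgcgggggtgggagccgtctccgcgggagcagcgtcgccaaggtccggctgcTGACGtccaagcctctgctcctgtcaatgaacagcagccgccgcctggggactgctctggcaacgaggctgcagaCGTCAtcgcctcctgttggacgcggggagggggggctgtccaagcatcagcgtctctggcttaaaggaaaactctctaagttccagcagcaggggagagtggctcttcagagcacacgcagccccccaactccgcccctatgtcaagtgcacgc
Pde4d, chr2:42592499-42592798: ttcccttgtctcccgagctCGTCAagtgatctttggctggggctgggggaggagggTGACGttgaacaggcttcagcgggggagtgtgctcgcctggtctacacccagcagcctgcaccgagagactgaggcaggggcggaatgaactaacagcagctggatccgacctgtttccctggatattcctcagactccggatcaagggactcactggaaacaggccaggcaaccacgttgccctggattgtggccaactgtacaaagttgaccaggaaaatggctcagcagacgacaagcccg
Pde4b, chr5:122028706-122029005: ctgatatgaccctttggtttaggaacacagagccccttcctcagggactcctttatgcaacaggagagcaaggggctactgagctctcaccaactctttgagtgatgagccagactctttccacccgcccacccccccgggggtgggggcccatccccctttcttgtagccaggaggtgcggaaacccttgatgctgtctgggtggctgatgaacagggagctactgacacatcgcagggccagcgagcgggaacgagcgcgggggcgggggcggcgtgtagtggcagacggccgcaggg
Crem, chr17:58985240-58985539: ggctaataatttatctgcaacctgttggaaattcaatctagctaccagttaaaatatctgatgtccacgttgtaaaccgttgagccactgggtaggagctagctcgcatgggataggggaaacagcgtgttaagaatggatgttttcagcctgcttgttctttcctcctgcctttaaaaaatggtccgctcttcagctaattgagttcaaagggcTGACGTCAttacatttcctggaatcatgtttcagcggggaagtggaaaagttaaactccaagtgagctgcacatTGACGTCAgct
A match is a run of letters only, and binding was not measured in these samples.

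Signals are linear, as deposited. Fold changes are differences of log2(signal + 16), in which the added constant makes changes of dim probe sets look smaller. Signals of different probe sets cannot be ranked against each other, since each has its own affinity. All 9 arrays were fitted together with limma, with the preparation as a block, over the 18625 probe sets whose mean lay above the 40th percentile. Adjusted p-values are Benjamini-Hochberg values over all of these, with a threshold of 0.05. They weigh a difference between groups against how much it varied from preparation to preparation, over 3 preparations. Differences in level between preparations are taken out by the block, and limma draws each variance towards that of probe sets of similar signal. Of the 8 member probe sets 6 were tested, all but 1 of Pde4d and that of Pde7b, which lay below the filter. The zona glomerulosa label was set against 12 markers, of which 11 were measured and none was listed at 0. Dab2 gave 10728 to 14486 over the 9 arrays and Agtr1b 2302 to 3734, whereas the potassium channel genes Kcnk9 and Kcnj5 gave 28.3 to 195 and 45.6 to 146, and Cyp11b2 was not analysed here. Cyp11a1, at 22928 to 25811, is on the list too, but it is a general gene of steroid synthesis and does not tell the zones apart. The zona fasciculata markers Akr1b7 and Cyp11b1 gave 27524 to 29964 and 1839 to 5413, with Cyp11b1 at 4552 to 5413 in preparation 1 and 1839 to 3095 in the others. Markers of other adrenal cells were also present, the endothelial Kdr at 6875 to 8654, the capsular Dcn at 4899 to 6655, the macrophage Cd14 at 1589 to 2413 and the medullary Th at 585 to 955. In such mixed cells a lower signal from fewer cells of a type and one from less RNA per cell cannot be told apart.

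**Figure D1:**
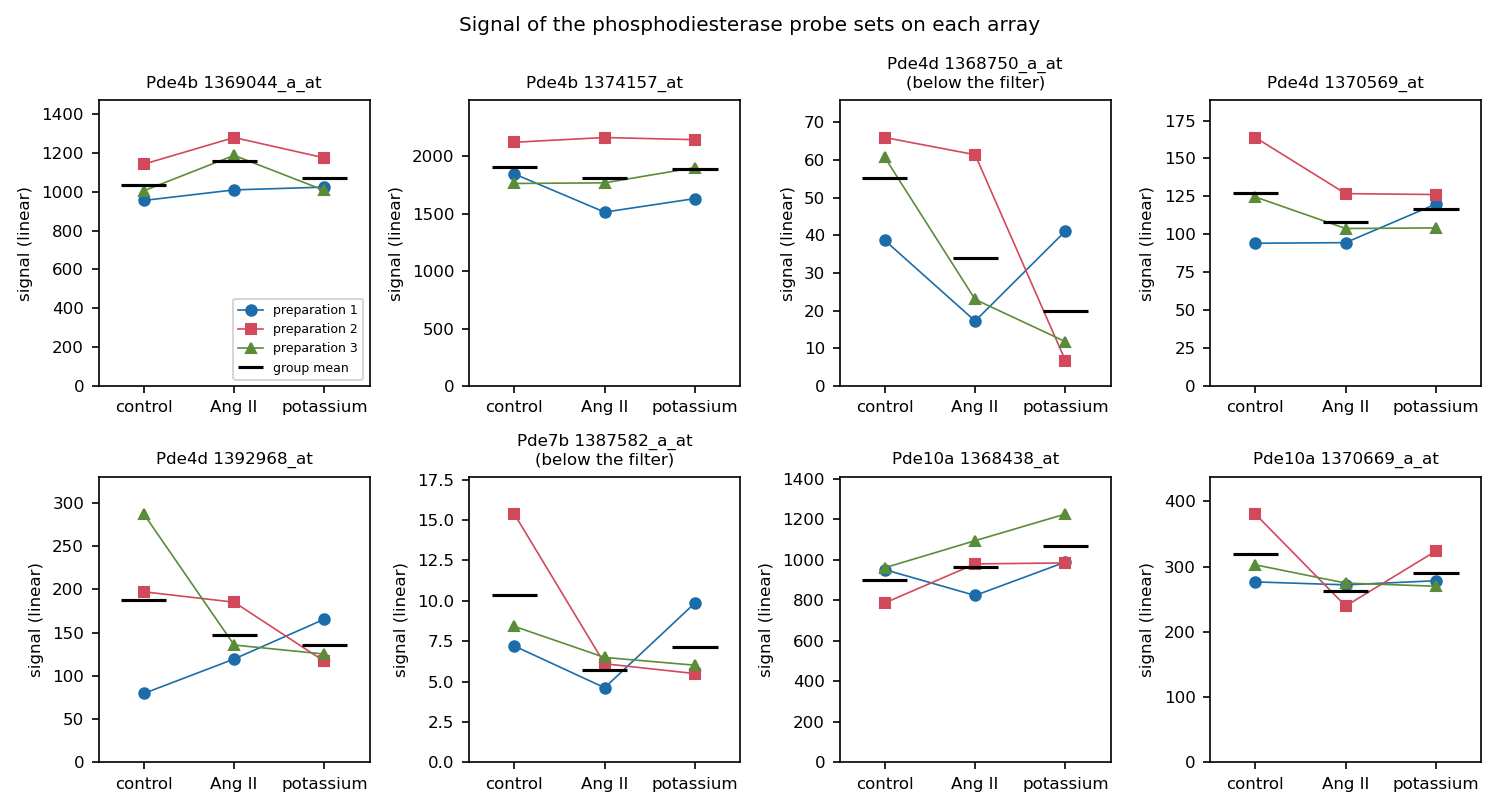
Linear signal of the 8 phosphodiesterase probe sets in control, Ang II and potassium tubes. Symbols are single arrays joined within a preparation (3 preparations), black bars are group means, and each panel has its own vertical axis from 0. Both Pde4b panels have preparation 2 on top in every group, while the Pde10a probe set 1368438_at lies higher in potassium (984.1 to 1225) than in control (786.8 to 960.3).

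Neither stimulus changed any tested member past the threshold. After Ang II 0 of 6 member probe sets passed limma's test, where 2.20% of all tested probe sets did, and 0 of the 6 had an unadjusted p under 0.05, against 14.5% of all. After potassium 0 of 6 passed, where 5.36% of all did, and 1 had an unadjusted p under 0.05, against 18.8% of all. Between Ang II and potassium 0 of 6 passed, against 4.79% of all, and 0 had an unadjusted p under 0.05, against 16.2%. The groups did not overlap for 1 of the 6 after Ang II, 1 after potassium and 0 between the stimuli, against 15.0%, 17.6% and 18.8% of all. At such background shares a count of 0 among 6 is no result about these genes in itself, and the intervals below give the changes the arrays leave possible. The median log2 fold change of the 6 was -0.14 after Ang II and -0.052 after potassium, beside -0.025 and -0.02 over all tested probe sets. Both stimuli were compared with the same 3 control arrays.

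Pde4b, a PDE4 gene prominent in immune and inflammatory cells, was read by 2 bright probe sets. Probe set 1369044_a_at gave 955.7, 1143 and 1006 in the controls of preparations 1, 2 and 3, then 1010.0, 1280 and 1188 with Ang II and 1024, 1175.0 and 1007 with potassium. With Ang II it was higher in 3 of 3 preparations, although the 3 Ang II values overlapped the 3 control values. The means were 1035 ± 96.9 and 1159 ± 137 (SD, n = 3), a log2 fold change of 0.16 ± 0.09 (SE), with a 95% interval from -0.033 to 0.35 and an adjusted p of 0.45 in limma. The potassium mean was 1069 ± 92.3, a log2 fold change of 0.047 ± 0.09 (interval -0.15 to 0.24, limma adjusted p = 0.84). A fold above 1.28 after Ang II, or above 1.18 after potassium, thus lay outside the interval for this probe set.

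The other Pde4b probe set, 1374157_at, gave 1848, 2124 and 1765 in the controls, 1515, 2165 and 1770.0 with Ang II and 1633, 2146 and 1903 with potassium. The groups overlapped throughout, and the highest value of each group came from preparation 2. Its log2 fold change was -0.084 ± 0.085 after Ang II (interval -0.26 to 0.096, limma adjusted p = 0.72) and -0.018 ± 0.085 after potassium (interval -0.20 to 0.16, limma adjusted p = 0.94). Both signs were opposite to those of 1369044_a_at, and both turned with arrays scaled to the median of all probe sets, to 0.038 and 0.10. Its standard error was the smallest of the tested members, whose standard errors ran from 0.085 to 0.32 beside a median of 0.15 over all tested probe sets.

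Pde4d, the PDE4 gene whose long forms are anchored near protein kinase A in many cells, was read by 3 probe sets of low signal. Probe set 1370569_at gave 94.07, 163.8 and 124.6 in the controls, 94.48, 126.8 and 103.8 with Ang II and 119.9, 126.2 and 104.2 with potassium. The control values spread more widely than those of either stimulus and enclosed them all. The log2 fold changes were -0.19 ± 0.25 after Ang II (interval -0.73 to 0.36, limma adjusted p = 0.80) and -0.087 ± 0.25 after potassium (interval -0.63 to 0.46, limma adjusted p = 0.90).

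Pde4d probe set 1392968_at varied most among the tested members. It gave 79.7, 197.2 and 287.1 in the controls, 119.5, 185.2 and 135.7 with Ang II and 165.6, 116.8 and 125.2 with potassium. The controls held both the lowest and the highest of the 9 values, and the stimulated values lay between them. In preparation 1 both stimuli were above control, by 0.50 and 0.92 on the log2 scale, and in preparation 3 both were below it, at -1.0 and -1.1. The fitted log2 fold changes were -0.19 ± 0.32 after Ang II (interval -0.88 to 0.50, limma adjusted p = 0.85) and -0.29 ± 0.32 after potassium (interval -0.98 to 0.40, limma adjusted p = 0.69). Changes of up to 1.41-fold upward and down to 0.54-fold after Ang II therefore lay within its interval.

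The third Pde4d probe set, 1368750_a_at, lay below the filter. Its signals were 38.65, 65.97 and 60.68 in the controls, 17.24, 61.4 and 22.97 with Ang II and 41.13, 6.727 and 11.75 with potassium. The potassium value was above its own control in preparation 1 and far below it in the other 2 preparations. In a fit of all 31042 probe sets without the filter, its log2 fold change was -0.59 ± 0.48 after Ang II (limma adjusted p = 0.71) and -1.08 ± 0.48 after potassium (interval -2.11 to -0.055, unadjusted p = 0.04, limma adjusted p = 0.32). All 3 Pde4d probe sets thus had negative fitted values against control under both stimuli, none of which passed, and that of 1370569_at after potassium turned to 0.030 with quantile normalization and 0.024 with arrays scaled to the median of all probe sets. Across the 9 arrays the 3 correlated with each other at 0.50, 0.63 and 0.66 (Pearson), and the points share their preparations and arrays.

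Pde7b was not tested, since its 1 probe set lay below the filter. Probe set 1387582_a_at gave 7.203, 15.37 and 8.419 in the controls, 4.622, 6.104 and 6.496 with Ang II and 9.864, 5.496 and 6.015 with potassium. All 9 values were below the constant of 16 that is added before the log, so fold changes here are strongly compressed. In the fit without the filter they were -0.27 ± 0.35 after Ang II (limma adjusted p = 0.84) and -0.18 ± 0.35 after potassium (limma adjusted p = 0.87). Whether the transcript was present cannot be read from signals of this size, since detection calls were not used here.

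Pde10a, the dual-specificity enzyme gene, had the probe set with the smallest p among the 6 tested. Probe set 1368438_at gave 950.8, 786.8 and 960.3 in the controls, 823.5, 979.2 and 1094 with Ang II and 988.4, 984.1 and 1225 with potassium. With potassium it was higher in 3 of 3 preparations and the 2 groups did not overlap. The means were 899 ± 97.5 and 1066 ± 138 (SD, n = 3), a log2 fold change of 0.24 ± 0.11, or 1.18-fold with an interval from 1.01 to 1.38. The unadjusted p was 0.04, and the limma adjusted p of 0.24 did not pass. After Ang II the log2 fold change was 0.097 ± 0.11 (interval -0.13 to 0.32, limma adjusted p = 0.74), with preparation 1 below and the others above control.

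The second Pde10a probe set, 1370669_a_at, gave 276.5, 380.5 and 302.7 in the controls, 272.0, 239.5 and 274.7 with Ang II and 278.3, 323.9 and 269.9 with potassium. All Ang II values lay below all controls, and in preparation 1 the 2 tubes differed by -0.02 on the log2 scale. The log2 fold change was -0.26 ± 0.16 after Ang II (interval -0.61 to 0.086, limma adjusted p = 0.51) and -0.12 ± 0.16 after potassium (interval -0.47 to 0.23, limma adjusted p = 0.75). The 2 Pde10a probe sets had opposite signs against control under both stimuli and correlated at -0.50 over the 9 arrays, so no single direction can be given for the gene.

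**Figure D2:**
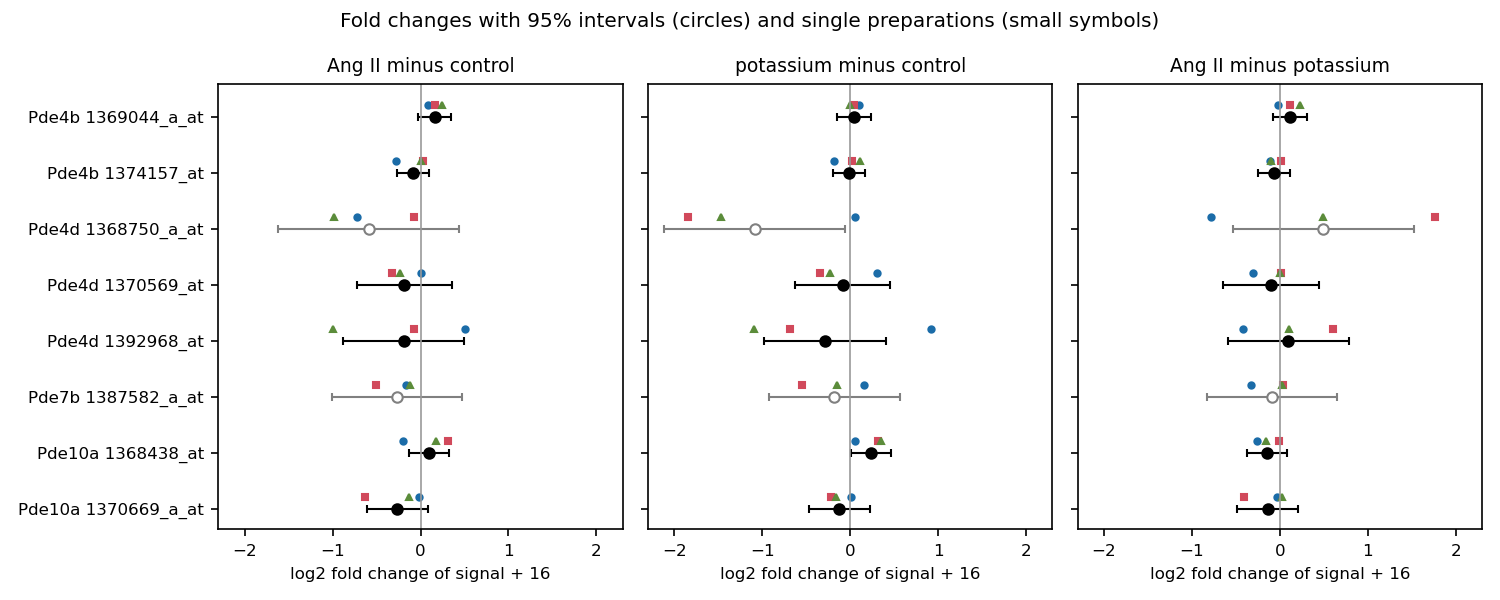
Fitted log2 fold change of signal + 16 for each phosphodiesterase probe set in the 3 comparisons. Large circles are the fits with 95% intervals (filled for the 6 tested, open for the 2 below the filter, fitted without it), and small circles, squares and triangles are preparations 1, 2 and 3. Only 1 of the 6 tested probe sets, Pde10a 1368438_at after potassium, has an interval that leaves out 0 (0.013 to 0.47), and its adjusted p was 0.24.

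Set directly against each other, the 2 stimuli were not told apart at any tested member. The log2 differences of Ang II from potassium ran from -0.14 for Pde10a 1368438_at, which was lower with Ang II in 3 of 3 preparations, to 0.11 for Pde4b 1369044_a_at, with limma adjusted p-values from 0.58 to 0.93. Intervals were -0.37 to 0.084 for the former and -0.08 to 0.30 for the latter.

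Pde4b means differed more between preparations than between groups, whose means ran from 1817 to 1912 for 1374157_at and from 1035 to 1159 for 1369044_a_at. The mean of 1374157_at over the 3 tubes of a preparation was 1665 in preparation 1, 2145 in preparation 2 and 1812 in preparation 3, and that of 1369044_a_at was 997, 1199 and 1067. Both Pde4b probe sets, and Pde4d 1370569_at, were highest in preparation 2 in all 3 groups, as were 8.62% of all tested probe sets. In an F test of the block in the limma fit, chosen after these values had been seen, 3.45% of all tested probe sets passed. The 1374157_at probe set just missed it (unadjusted p = 0.002, adjusted p = 0.054), and 1369044_a_at did not pass (0.033 and 0.21). The former passed under 4 of 21 other settings, among them quantile normalization (adjusted p = 0.031) and the fit without preparation 3 (0.028), and its adjusted p was 0.69 with arrays scaled to the median of all probe sets. Adjusted p-values of the other tested members ran from 0.26 to 0.78.

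Of 7 lists of markers of other cell types, 3 had their highest sums in preparation 2 in all groups. The summed signal of 8 macrophage markers was 5284 to 5899 there, against 4081 to 4659 in preparation 1 and 4395 to 4754 in preparation 3, and 3 of the 8 were highest in preparation 2 in all groups. For the 5 smooth muscle markers, all highest in preparation 2 in each group, the sums were 8578 to 9422, 6477 to 6845 and 5997 to 6919 in the same order. The 4 measured lymphocyte markers summed to 514 to 773, 256 to 322 and 399 to 541, and 3 of the 4 were highest in preparation 2 throughout. The other 4 lists did not follow this order. In preparations 1, 2 and 3 the medullary sums were 2341 to 2775, 2341 to 2455 and 3082 to 3432, and the endothelial sums 21926 to 23555, 24114 to 26040 and 26742 to 27778. The capsule fibroblast sums were 15156 to 17271, 16998 to 18966 and 18893 to 20168, and the zona fasciculata sums 33708 to 34651, 29774 to 32431 and 30419 to 32090. No marker of these 3 lists was listed at 0, the lowest being the macrophage gene Cd163 at 2.56 and the lymphocyte gene Cd79b at 4.10. Their part in the Pde4b pattern was not tested. Between groups the macrophage sums overlapped, at 4628 to 5899 in control, 4395 to 5878 with Ang II and 4081 to 5284 with potassium, and so did those of the other 2 lists. Acta2, a smooth muscle actin gene, was the 1 marker of these 3 lists that passed limma's test between groups, rising by 0.40 ± 0.098 after Ang II (adjusted p = 0.049).

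**Figure D3:**
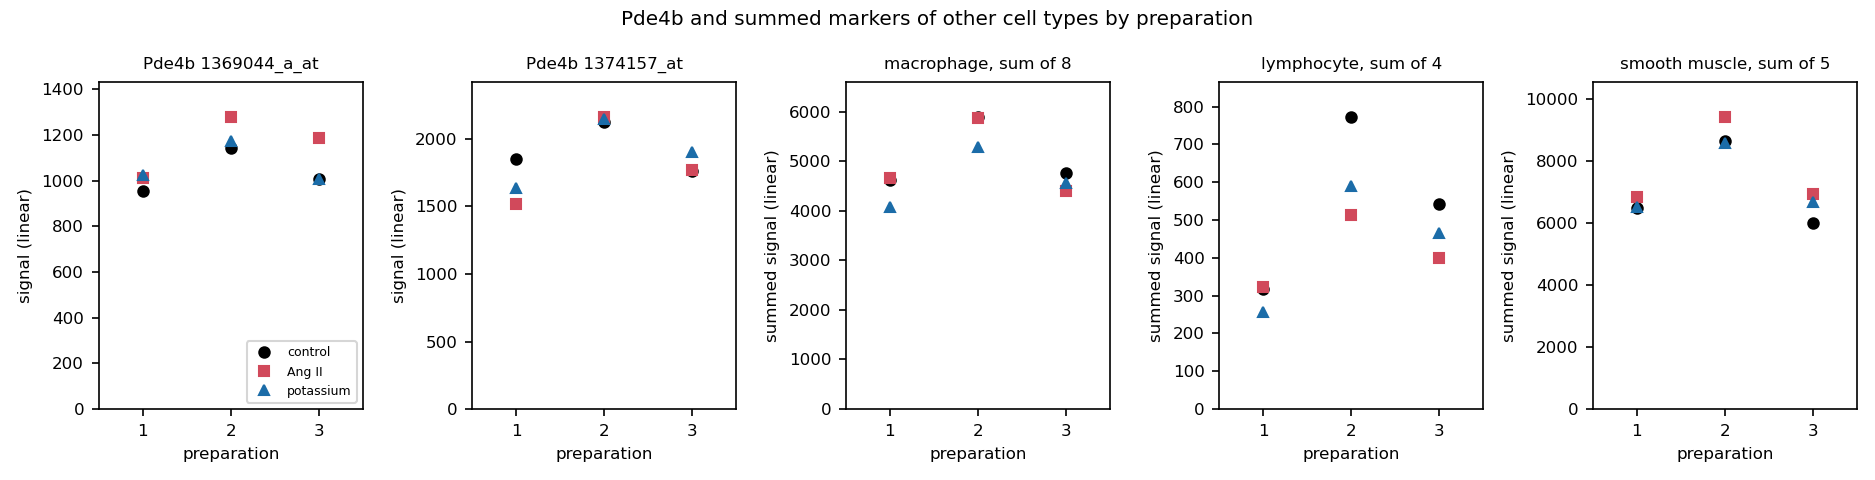
Signal of both Pde4b probe sets and summed signal of the measured macrophage, lymphocyte and smooth muscle markers, by cell preparation. Points are single arrays of the control, Ang II and potassium tubes, and the preparations have no order. Preparation 2 holds the highest point of each group in all 5 panels, such as 2124 to 2165 for Pde4b 1374157_at. The marker lists drawn are those with their highest sums in preparation 2, and the lists that did not follow this order are left out.

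Genes of like pattern were taken as those with the highest Pearson correlation over the 9 arrays after each preparation's mean had been subtracted, for the brightest tested probe set of each member. For Pde4b 1374157_at these were the calcium channel subunit gene Cacna2d1 (0.972), Rsph9 (0.944) and Znf16l-ps1 (0.943). For Pde4d 1392968_at they were the collagen gene Col8a1 (0.985), Tesk2 (0.969) and Cfap45 (0.957), and for Pde10a 1368438_at the thrombin receptor gene F2r (0.982), Nrcam (0.967) and the tubulin gene Tubb5 (0.966). None of the 9 passed limma's test in any comparison, the lowest adjusted p being 0.26, for F2r after potassium. They were picked for following members that had not passed, so this outcome was largely set by the choice. The 9 values of a gene are not free of each other once each preparation's mean is subtracted. Picked as the highest among all tested probe sets with 1 gene symbol, over so few values, such correlations can arise without any relation between the genes.

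Of 17 other cyclic nucleotide phosphodiesterase genes 15 were measured and 7 tested, and 0 of the 7 passed limma's test in any of the 3 comparisons. With 2.20%, 5.36% and 4.79% of all tested probe sets called in these, a count of 0 among 7 is no result about the family. Pde5a lay below the filter, and in the fit without it had a limma adjusted p of 0.039 after Ang II. Its values are given under the other observations. Pde2a, whose cGMP-stimulated enzyme is known to mediate the fall of cAMP caused by natriuretic peptide in glomerulosa cells, gave 7654 to 10094 over the 9 arrays. Its log2 fold change was 0.00 ± 0.068 after Ang II (interval -0.15 to 0.15) and 0.031 ± 0.068 after potassium (interval -0.12 to 0.18), the tightest intervals among the phosphodiesterases named here, with quantile normalization the values were -0.075 and -0.031, and with arrays scaled to the median of all probe sets 0.12 and 0.15. For Pde8a, a high-affinity cAMP-specific enzyme gene, probe set 1376057_at gave 926 ± 9.55 in control, 897 ± 86.1 with Ang II and 1047 ± 51.0 with potassium (SD, n = 3). The potassium values lay above all controls, and the log2 fold change was 0.17 ± 0.095 with a limma adjusted p of 0.36. The other Pde8a probe set, 1382518_at, lay below the filter, with signals of 10.97 to 137.7. In the fit without the filter it was at 1.13 ± 0.43 after potassium (limma adjusted p = 0.23). After Ang II it was at 0.72 ± 0.43 (limma adjusted p = 0.58), beside -0.05 ± 0.095 for 1376057_at.

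Pde8b and Pde3b had wider intervals. Pde8b, the other high-affinity gene, had a log2 fold change of -0.80 ± 0.33 after Ang II at probe set 1392088_at (interval -1.50 to -0.10, limma adjusted p = 0.27), from signals of 101.4, 245.9 and 81.97 in control to 35.14, 100.2 and 79.39. Its other probe set, 1380483_at, lay below the filter, and in the fit without it was at -0.52 ± 0.36 after Ang II (limma adjusted p = 0.64). Pde3b, a cGMP-inhibited enzyme gene, was at -0.62 ± 0.31 after Ang II (limma adjusted p = 0.39) and 0.14 ± 0.31 after potassium (limma adjusted p = 0.86), and the direct difference of the 2 stimuli was -0.76 ± 0.31 (limma adjusted p = 0.23).

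The rest of the cyclic nucleotide pathway, with those 17 genes, made up 8 lists of 86 genes, 79 of them measured and 53 tested. After Ang II 2 of the 53 rose and 0 fell, with a median log2 fold change of 0.00, and after potassium 3 rose and 0 fell, with a median of 0.054. These counts rest on the brightest probe set of each gene and lie near the 2.20% and 5.36% called among all tested probe sets. Among all tested probe sets 310 were called higher and 99 lower after Ang II, and 518 and 480 after potassium, again 2.20% and 5.36%. Over all 82 tested probe sets of these genes 6 rose after Ang II and 10 after potassium, and 0 fell, with 4 and 5 of them of Crem alone. The genes that this adds are Gnas, which encodes the stimulatory G protein subunit, at probe set 1390263_at under both stimuli (0.74 ± 0.15 and 0.75 ± 0.15), and after potassium the catalytic subunit gene Prkacb at 1384772_at (0.78 ± 0.12) and Akap12 at 1368868_at (0.47 ± 0.10), each with a brighter probe set that did not pass. Of 10 CREB family and coactivator genes 1 rose under each stimulus, and it was the same gene, Crem, whose products include cAMP-induced repressors. Its brightest probe set, 1378925_at, had a signal of 8000 ± 713 in control, 10971 ± 1201 with Ang II and 12853 ± 703 with potassium (SD, n = 3), rising by 0.45 ± 0.084 (limma adjusted p = 0.0077) and 0.69 ± 0.084 (limma adjusted p = 0.00012). The Ang II call ended without Ang II replicate 1 (adjusted p rounding to 0.05 from above), without Ang II replicate 2 (0.075), without preparation 1 (0.13) and without preparation 2 (0.067), while the potassium call held in each fit with an array or preparation left out. Without the intensity trend both calls ended (adjusted p = 0.24 and 0.058). Of 6 tested Crem probe sets 4 rose after Ang II and 5 after potassium, and 1378925_at had the smallest rise of these under each stimulus. The others that passed ran from 0.566 ± 0.099 to 0.756 ± 0.103 after Ang II (limma adjusted p of 0.005 or less). After potassium they ran from 1.225 ± 0.115 to 1.354 ± 0.085 (limma adjusted p of 7.7e-06 or less). The alternative fits given above are for 1378925_at alone. Crtc3, a CREB coactivator gene, was at -0.44 ± 0.12 after Ang II and did not pass (limma adjusted p = 0.077).

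Among 9 tested A-kinase anchoring protein genes, whose products tether protein kinase A, Akap12 rose after Ang II, by 0.30 ± 0.067 (limma adjusted p = 0.03), from 4927 ± 196 to 6077 ± 522. Its call ended whichever of the 6 arrays or 3 preparations was left out (adjusted p from 0.059 to 0.19), as it did without the replicate block (0.19), without the intensity trend (0.28) and without the filter (0.054), and the other tested Akap12 probe set did not pass after Ang II. Among 8 tested protein kinase A subunit and inhibitor genes, the regulatory subunit gene Prkar2b rose after potassium by 0.27 ± 0.071 (limma adjusted p = 0.036), from 2704 ± 509.6 to 3260 ± 507, and this call too ended in every fit with an array or preparation left out (adjusted p from 0.061 to 0.22), without the replicate block (0.46), without the intensity trend (0.20) and with only the 2 groups fitted (0.079). Of 5 tested genes of other cAMP effectors and G proteins, Rapgef4, which encodes the cAMP-activated exchange factor Epac2, rose after potassium by 0.45 ± 0.10 (limma adjusted p = 0.017), from 873 ± 178 to 1183 ± 149. That call held without preparation 2 and without control replicate 2 and ended in the other 7 such fits (adjusted p from 0.053 to 0.13), without the replicate block (0.17) and without the intensity trend (0.12).

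No gene passed against control among 5 tested adenylyl cyclases, which make cAMP, 6 genes of cGMP synthesis and effectors, or 3 of phosphodiesterase-associated proteins. The smallest unadjusted p of the cyclases was 0.019, for Adcy4 after potassium (0.27 ± 0.10, limma adjusted p = 0.16). Pde4dip, which encodes an anchoring protein that binds PDE4D, was at 0.94 ± 0.40 after Ang II and did not pass (limma adjusted p = 0.29). Npr1, the receptor of atrial natriuretic peptide, was at -0.13 ± 0.08 (limma adjusted p = 0.51).

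**Figure D4:**
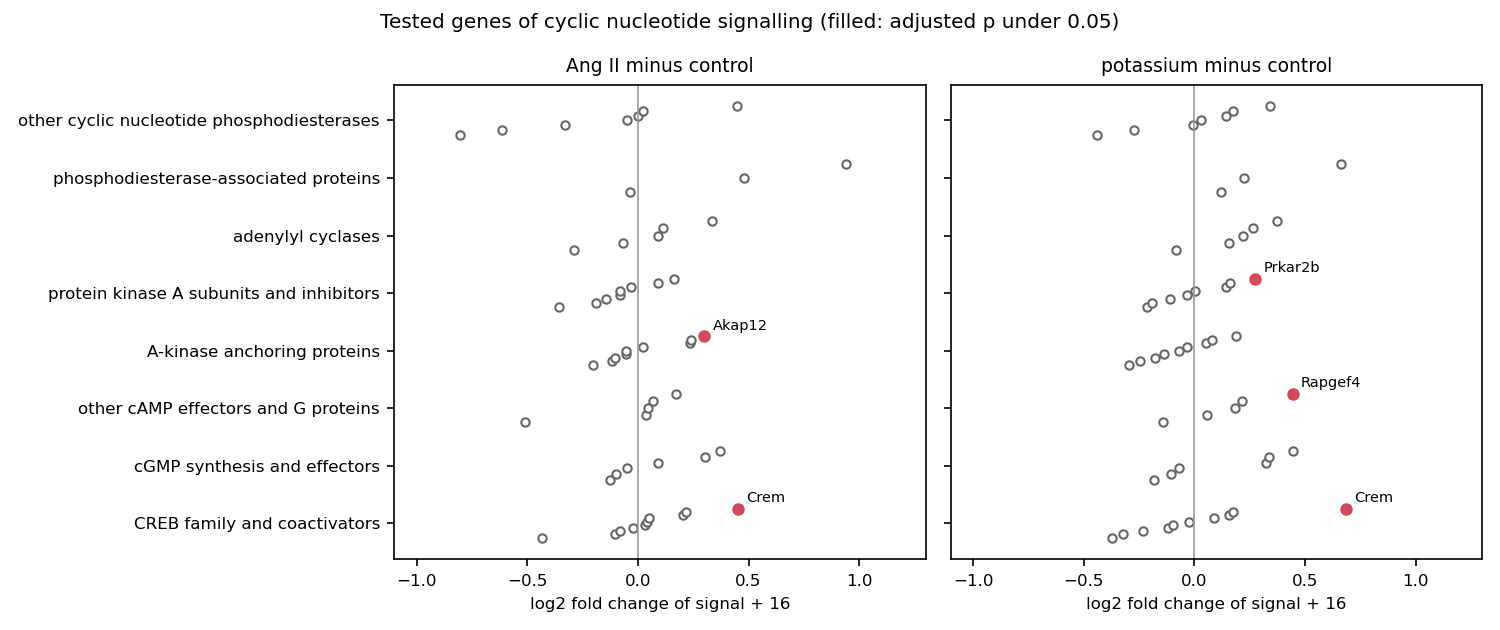
Log2 fold change of signal + 16 of the 53 tested genes of the 8 lists of cyclic nucleotide signalling, 1 probe set a gene, after Ang II and after potassium against control. Each circle is 1 gene and filled circles have a limma adjusted p under 0.05. They are Akap12 and Crem after Ang II, and Prkar2b, Rapgef4 and Crem after potassium, and all 7 other phosphodiesterases are open.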

How the data were processed

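RNA of 9 tubes of cells was measured on 9 arrays. The authors deposited 1 linear intensity value for each probe set on each array. GCOS, software of the array's maker, is named without a version by the submitters' processing notes. How the background was removed and how probes were summarised is not stated there. With 2% trimmed at each end, every array's mean of these deposited intensity values lay at 500.17 to 500.19, while array medians ran from 128 to 172.9. No further scaling was applied.

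Of 31099 probe sets 57 were controls. Symbols came from the platform annotation, updated through RefSeq GRCr8, with 20826 probe sets given a single symbol, 436 several and 9780 none. Values were taken as log2(signal + 16), and the 18625 probe sets above the 40th percentile of the mean were fitted in R 4.3.3 with limma 3.58.1, whose eBayes step used an intensity trend. The terms were group and preparation, with 4 residual degrees of freedom beside 10.7 of the prior, and adjustment was by Benjamini-Hochberg at 0.05. The method was tested on simulated data. Pairing follows the design text, and deviations from group means correlated at 0.0933 to 0.27 for the 9 array pairs of 1 preparation and -0.213 to 0.0459 for the 18 others.

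The members, gene lists, markers and motifs were chosen with earlier results of these data known. Named genes were all member probe sets, Pde2a, Pde3b, Pde8a, Pde8b and any other phosphodiesterase that passed, up to 3 genes per other list with the smallest p, and the 3 genes of most like pattern, with 1 probe set a gene (the brightest). Alternatives changed the block, the constant added (1 or 64), the filter (none or the 60th percentile), the scaling, the variance prior, the groups fitted, and left out each array and preparation. The number of arrays limits the precision.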

Additional observations from a re-analysis of the deposited data

Results flagged for a closer look

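Prkar2b, which encodes a regulatory subunit of protein kinase A, differed between the 2 stimuli when they were set directly against each other. Its log2 difference of Ang II from potassium at probe set 1371133_a_at was -0.355 ± 0.071 (SE, limma adjusted p = 0.0083), lower with Ang II in 3 of 3 preparations, with means of 2554 ± 466 and 3260 ± 507 (SD, n = 3). The call ended in 7 of 20 alternatives, which were the fits without the replicate block (adjusted p = 0.36), without the intensity trend (0.15), with arrays scaled to the median of all probe sets (0.12), and without preparation 1 (0.12), preparation 2 (0.06), Ang II replicate 1 (0.053) or potassium replicate 2 (0.063). Prkar2a, the gene of a sister subunit, had a difference of the other sign, 0.31 ± 0.084, and did not pass (limma adjusted p = 0.051). Of the 82 tested probe sets of the pathway lists 5 passed here, that of Prkar2b among them, where 4.79% of all tested probe sets did. The count lies near that share and is no result about the pathway. Among all tested probe sets 576 were called higher with Ang II and 316 lower, while the 5 were all lower with Ang II. The other 4 were of Crem, from -0.498 ± 0.103 (limma adjusted p = 0.0098) to -1.117 ± 0.115 (limma adjusted p = 3e-05). The brightest Crem probe set, at -0.232 ± 0.084, did not pass (limma adjusted p = 0.16).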

How the results depend on the processing

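The count of member probe sets called stayed at 0 in each of the 3 comparisons under all 20 alternatives of each, and the 354 member values under these had adjusted p-values of 0.11 or more, with 328 of the sign first given and 26 of the other. Without the replicate block 0 members were called, and the block changed no member's call. Over all tested probe sets the calls after Ang II, after potassium and between them were 409, 998 and 892, against 197, 506 and 442 without the block and 38, 258 and 156 without the intensity trend. Scaling arrays to the common median of every probe set moved the median log2 fold change of all to 0.093 and 0.098, gave 431 higher and 33 lower calls after Ang II (310 and 99 before) and 722 and 177 after potassium (518 and 480 before), and left 556 between the stimuli. Under that scaling the signs turned for Pde4b 1374157_at (0.038 after Ang II, 0.104 after potassium, and 0.021 after potassium scaled to the tested probe sets), Pde4d 1370569_at after potassium (0.024, and 0.03 with quantile normalization) and Pde8a after Ang II (0.071). Quantile normalization turned Pde2a to -0.075 and -0.031. With 1 array or preparation left out, log2 values that changed sign ran, after Ang II, from -0.14 to 0.016 for Pde4b 1374157_at, from -0.67 to 0.212 for Pde4d 1392968_at, from -0.009 to 0.247 for Pde10a 1368438_at, from -0.067 to 0.075 for Pde2a and from -0.124 to 0.022 for Pde8a. After potassium they ran from -0.081 to 0.072, from -0.893 to 0.12 and from -0.04 to 0.121 for the same probe sets of Pde4b, Pde4d and Pde2a, from -0.282 to 0.039 for Pde4d 1370569_at and from -0.154 to 0.437 for Pde3b. Between the stimuli they ran from -0.188 to 0.048 for Pde4d 1370569_at, from -0.159 to 0.525 for Pde4d 1392968_at, from -0.227 to 0.021 for Pde10a 1370669_a_at and from -0.092 to 0.008 for Pde2a. The cause of these turns was not tested. The block's F test for Pde4b 1374157_at passed with the filter at the 60th percentile (adjusted p = 0.037), quantile normalization (0.031), a robust variance prior (rounding to 0.05 from below) and without preparation 3 (0.028). With 3 preparations, members as variable as Pde4d had intervals over 1 log2 unit wide, and all signals of Pde7b lie below the constant added before the log.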

Other observations

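Pde5a, the cGMP-specific phosphodiesterase gene, lay below the filter and was picked out after its values had been seen. Its probe set 1369229_at gave 84.8, 81.42 and 133.2 in the controls, 10.84, 18.05 and 26.57 with Ang II and 39.25, 73.16 and 85.76 with potassium. All Ang II values lay below all control and all potassium values, while the potassium and control values overlapped. Among tested probe sets 15.0% did not overlap between Ang II and control, and 18.8% between the stimuli. In the fit of all probe sets without the filter its log2 fold change was -1.75 ± 0.38 after Ang II (SE, limma adjusted p = 0.039), -0.52 ± 0.38 after potassium (limma adjusted p = 0.59) and -1.23 ± 0.38 between the stimuli (limma adjusted p = 0.14). It had no value in the filtered fit.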
